A study of Mus musculus with 6 samples.

Results

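The genes described here are 74 nuclear-encoded subunits of the respiratory chain and ATP synthase, out of 16158 genes measured in single cells of mouse skin. They were chosen by name, with earlier results of these data known. The set is every symbol that begins with Ndufa, Ndufb, Ndufc, Ndufs or Ndufv and a digit, with Uqcr, with Cox4 to Cox8, or with Atp5. Ndufa4l2 and the Ndufaf assembly factors were left out. The names place 36 of them in complex I, 8 in complex III, 16 in complex IV and 14 in complex V. Ndufa4 is counted under complex I by its name, although its protein is now regarded as a subunit of complex IV. The skin came from 6 mice of the NINJA strain, aged 6 to 12 weeks, in 3 groups of 2: NO_AG (antigen off), AG (antigen on) and AG_CPI (antigen on, with the treatment the labels call CPI). All 6 mice, the antigen-off controls included, had 4-OH-Tam applied to the sampled skin, and each was checked for visible skin pathology and for its skin-infiltrating P14 CD8 T cells before its cells were sequenced. Each mouse gave 1 library of the 10x 5' kind, so a group is 2 animals. The labels do not give the promoter that drives the antigen or the recombinase, the agent behind CPI, or the source of the P14 cells, and the series is titled as a study of PD-1 and the pathogenicity of effector CD8 T cells in skin.

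The respiratory chain passes electrons from NADH and succinate to oxygen and pumps protons across the inner mitochondrial membrane, and ATP synthase (complex V) uses the return of those protons to make ATP. Complex I oxidises NADH, complex III passes electrons from ubiquinol to cytochrome c, and complex IV reduces oxygen. Most subunits are encoded in the nucleus and imported, while a small core is encoded in mitochondrial DNA, so each complex needs both sets of transcripts. T cells that are activated and divide, resident macrophages and the dividing and differentiating layers of the epidermis are all known to differ in how much they rely on this machinery.

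Cell numbers per library ran from 1736 to 4972 and total unique molecular identifiers (UMIs, counted transcript molecules) from 5903724 to 24656382. Median UMIs per cell were 4249 and 4744 for NO_AG, 3475 and 2612.5 for AG, and 2527 and 2778.5 for AG_CPI, so depth differed between the groups. AG_CPI 1 stood apart in sex-linked transcripts: outside the T cells, 4.12% of its cells had an Xist UMI and 15.5% one of Ddx3y, against 67.5% to 86.0% with Xist in the other 5 mice, and the part of sex in any difference between mice was not tested. Of 20921 distinct barcodes, 255 occurred in more than 1 library, 5 to 35 for each pair of libraries. After filters, 20464 cells were retained and sorted into classes by lists of marker genes, with the 74 genes left out of the clustering. Levels are means, over the cells that a mouse has in a class, of a gene's UMIs per 10000. A tested difference is a log2 fold change from limma-trend, between groups of mice, between classes of the same mice, or between such differences. It was fitted after a scaling between libraries (TMM) and with 0.1 added. Its p was adjusted over all genes by the Benjamini-Hochberg method, and it was called at an adjusted p under 0.05. Since 5' UMI counts are not corrected for length or for how well each 5' end is captured, levels of different genes are given side by side as UMIs and not ranked as amounts of protein. Several subunits have processed pseudogenes of near-identical sequence, so reads of those genes may have been split or lost in the authors' counting.

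Promoters of 62 of the 74 genes were matched in RefSeq (GRCm38.p6, 250 bases before to 50 after the start, both strands searched). The core of the binding site of NRF1, a transcription factor named for its role in the regulation of respiratory genes, was searched as GCATGCG and was found in 10 of the 62 (16.1%), against 4.01% of all 27025 genes with a promoter of that length in the table. An ETS core, searched as CCGGAAG and bound by factors such as GABP, was found in 14 (22.6%) against 9.93%. Either motif was found in 19 (30.6%), and both in 5 genes, Atp5j, Atp5k, Atp5l, Cox6a1 and Uqcr11. A match is a description of these letters and not evidence of binding. Stretches of 120 bases are shown for 4 genes that were called between cell classes in the results that follow, 2 of complex I and 2 of complex III by name; all lie on the minus strand, are written 5′ to 3′, and capitals mark a motif match.
Uqcr11, chr10:80406822-80406941, the last 120 bases before the start, with an ETS core 66 bases before it and a final CGCAT that begins an NRF1 core running into the transcript: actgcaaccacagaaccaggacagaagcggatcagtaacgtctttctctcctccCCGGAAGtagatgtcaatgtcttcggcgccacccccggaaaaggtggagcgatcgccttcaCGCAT
Uqcrh, chr4:116075071-116075190, the last 120 bases before the start, with an ETS core on the reverse strand 10 bases before it: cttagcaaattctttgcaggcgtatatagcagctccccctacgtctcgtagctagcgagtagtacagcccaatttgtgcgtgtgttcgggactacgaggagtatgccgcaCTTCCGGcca
Ndufa6, chr15:82354332-82354451, bases 160 to 41 before the start, with an NRF1 core 83 bases before it: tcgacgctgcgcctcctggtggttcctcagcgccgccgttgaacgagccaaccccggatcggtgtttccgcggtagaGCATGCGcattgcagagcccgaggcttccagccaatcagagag
Ndufa4, chr6:11907501-11907620, bases 170 to 51 before the start, with neither motif in its window: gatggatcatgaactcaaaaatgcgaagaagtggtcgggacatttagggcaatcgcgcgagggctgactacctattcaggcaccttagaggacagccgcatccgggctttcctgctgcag
Uqcr11 and Uqcrh, both small subunits of complex III with an ETS core near the start, were called in opposite directions between macrophages and CD8 T cells in the results that follow, and of the other genes described most closely, Ndufb7 held an ETS core 20 bases before the start and Uqcrc1 an NRF1 core 32 bases after it, while Ndufc2, Cox7a2l, Cox5b and Cox7a2 held neither motif.

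The genes were detected throughout the skin. Of the 74, 68 passed the filter on low levels in all 10 separate classes, and for these the highest class exceeded the lowest by a median of 1.81-fold (on the log2(level + 0.1) scale); 43 stayed under 2-fold and 0 exceeded 4-fold. Summed over the 74 genes, the level was lowest in dendritic epidermal T cell-like cells (DETC, the gamma-delta T cells of mouse epidermis) at 236.5 ± 12.9 UMIs per 10000 (SD, n = 5 mice). Monocyte/macrophage-like cells followed with 248.3 ± 12.9 (n = 4), then regulatory T cells with 252.3 ± 19.2, conventional CD4 T cells with 259.2 ± 30.3 and CD8 T cells with 265.9 ± 20.9 (n = 6 each). Keratinocyte states had higher means: suprabasal 279.2 ± 35.8, bulge 286.2 ± 45.0 and basal 310.6 ± 76.8 (n = 6 each), cycling 323.9 ± 35.7 (n = 5) and upper hair follicle 328.7 ± 35.8 (n = 6). Neighbours in this order differed by less than the spread between mice. The order pools the groups: in the NO_AG mice basal cells summed to 240 and 241 against 240 and 257 in CD8 T cells, and were not higher there, and the macrophage mean holds AG and AG_CPI mice only. DETC-like cells were not the lowest class in either NO_AG mouse, where conventional CD4 T cells summed lower. Among the 68 genes, upper hair follicle cells held the highest level of 21 and cycling keratinocytes of 20, while macrophages held the lowest level of 19, DETC-like cells of 18 and regulatory T cells of 15.

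**Figure D1:**
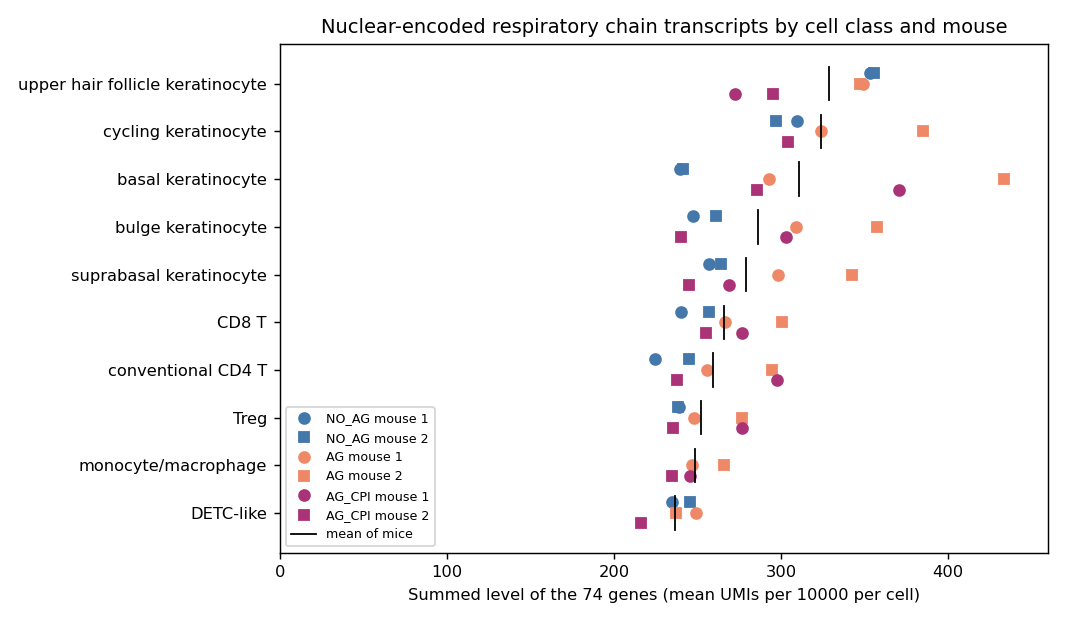
Summed level of the 74 genes (x axis, mean UMIs per 10000 UMIs per cell) in 10 cell classes; circles are mouse 1 and squares mouse 2 of each group, colours are the groups, and the black line is the mean of the mice. T cell and macrophage classes sit between 216 and 301, and basal keratinocyte-like cells spread most, from 240 to 433.

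By complex, the members with the highest and lowest mean level over the classes were Ndufa4 (5.15 UMIs per 10000) and Ndufs1 (0.382), an iron-sulfur subunit of the NADH-oxidising arm, in complex I. In complex III they were Uqcrh (8.81), the hinge protein that helps dock cytochrome c, and Uqcrc2 (1.35), a core protein. In complex IV they were Cox4i1 (13.5), the common isoform of subunit 4, and Cox8b (0.00112), an isoform known from muscle. In ATP synthase they were Atp5g3 (9.83), 1 of 3 genes for the c-ring subunit that turns with proton flow, and Atp5k (2.78), the small subunit e at the dimer interface. Genes that make the same subunit did not follow the same classes throughout: Atp5g3 and Atp5g2 were highest in cycling keratinocytes (15.1 and 12.0) and lowest in macrophages (7.07 and 6.52), while Atp5g1 was highest in cycling keratinocytes (6.02) and lowest in regulatory T cells (2.94). Macrophages, lowest for 19 genes, held the highest level of Atp5e (12.2), the epsilon subunit of the stalk, and CD8 T cells held the highest level of Cox5a (7.23), a matrix-facing subunit of complex IV. Uqcrfs1, the Rieske iron-sulfur protein, ran from 1.55 in DETC-like to 3.45 in upper hair follicle cells, and Ndufs4, an accessory subunit of complex I, from 0.794 in DETC-like to 1.46 in bulge cells. Cox6c, Cox6b1 and Cox8a varied little between classes, from 6.56 to 9.51, from 5.62 to 8.48 and from 10.8 to 15.7. Cox7c ran from 4.31 to 8.46, Cox6a1 from 3.18 to 5.48, Atp5a1, the alpha subunit, from 2.59 to 6.42, and Ndufa1, an X-linked subunit of complex I, from 1.73 to 2.86.

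The 5 members that differed most between the highest and lowest class were Ndufa4 (6.82 in cycling keratinocytes against 1.74 in macrophages), Uqcrc1 (4.25 in cycling keratinocytes against 1.41 in regulatory T cells), Uqcr11 (6.79 in basal keratinocytes against 2.45 in CD4 T cells), Atp5b (8.32 in cycling keratinocytes against 3.02 in macrophages) and Atp5o (5.44 in upper hair follicle cells against 2.05 in DETC-like cells). Uqcrc1 is a core protein of complex III, Uqcr11 a small subunit of the same complex, Atp5b the catalytic beta subunit and Atp5o the stalk protein that holds it.

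**Figure D2:**
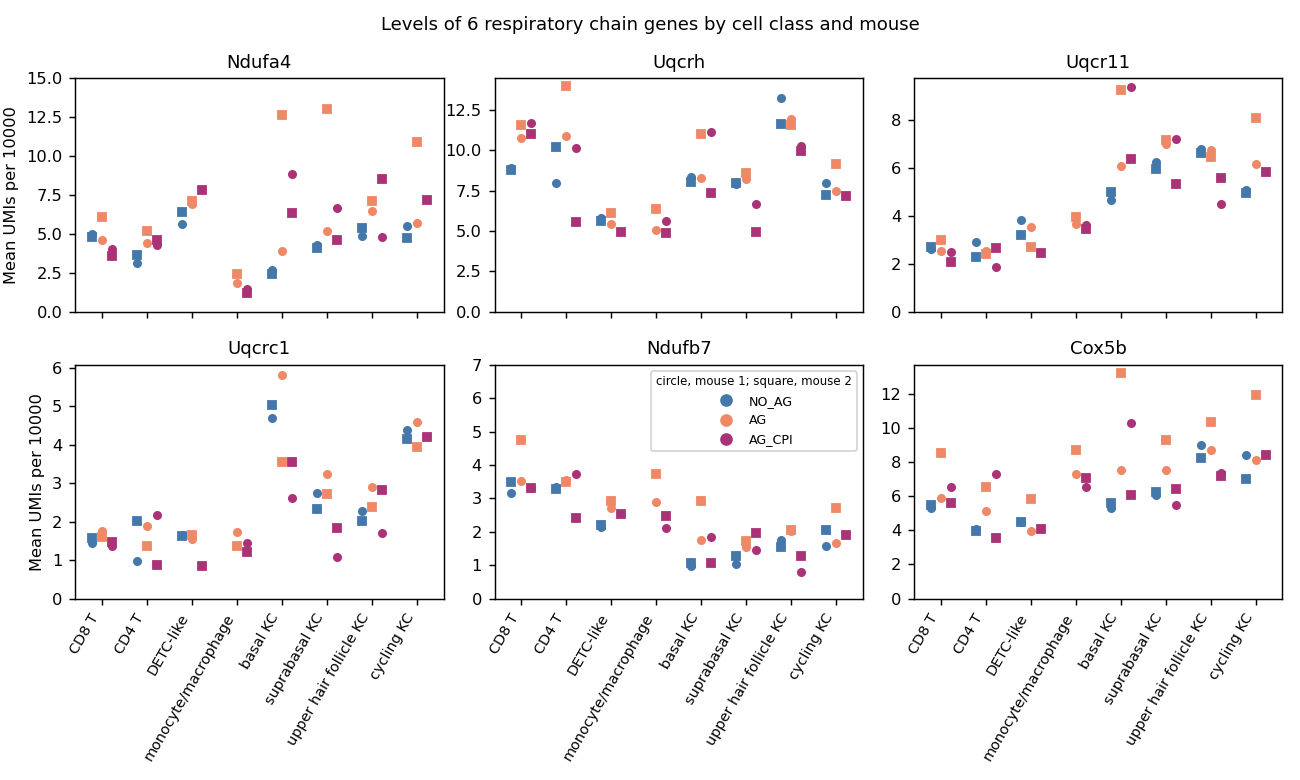
Levels of Ndufa4, Uqcrh, Uqcr11, Uqcrc1, Ndufb7 and Cox5b (y axis, mean UMIs per 10000) in 8 classes; each point is 1 mouse, coloured by group. Ndufa4 sits lowest in macrophages (1.22 to 2.42), Uqcr11 and Uqcrc1 sit higher in basal keratinocytes than in T cells, and Ndufb7 sits higher in T cells.

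Macrophages and CD8 T cells of the same mice could be compared in the 4 AG and AG_CPI mice. Of 69 members tested, 31 were higher and 4 lower in macrophages, where 61.5% of the 7045 genes tested were called (32.1% higher and 29.4% lower). The median difference was 0.21 on the log2 scale, against 0.00 over all genes, and with the deposited scaling alone 11 were higher and 28 lower, where 22.9% of all genes were higher and 44.4% lower, at a median of −0.10 against −0.24 over all genes. The scaling moved all genes together and the members' median lay above that of all genes with both scalings; 11 higher genes (Atp5g1, Ndufa3, Ndufa5, Ndufb4, Ndufb8, Ndufc1, Ndufc2, Ndufs7, Uqcr11, Uqcrb and Uqcrq) and 4 lower genes (Ndufa4, Ndufb11, Ndufs1 and Uqcrh) were called with both.

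Ndufa4 was 1.86 and 2.42 UMIs per 10000 in the macrophages of the AG mice and 1.48 and 1.22 in those of the AG_CPI mice, against 4.60, 6.10, 4.02 and 3.58 in their CD8 T cells. The ranges did not overlap, and the fold change was −1.04 on the log2 scale (SE 0.091, adjusted p = 5.91e-07). Uqcrh was 5.05, 6.38, 5.61 and 4.87 in macrophages against 10.7, 11.6, 11.7 and 11 in CD8 T cells, also without overlap (−0.71, adjusted p = 1.38e-05). Ndufb11, a membrane-arm subunit of complex I, was lower by a fitted −0.53, and Ndufs1 by −0.44, with 0.103, 0.182, 0.194 and 0.217 in macrophages; its adjusted p was 0.0144 and became 0.0534 without mouse AG 1. On the other side, Ndufc2, an accessory subunit of the membrane arm, was 3.57, 3.53, 3.07 and 3.66 in macrophages against 1.92, 2.24, 2.06 and 1.65 in CD8 T cells. It was higher by 1.11 on the log2 scale (SE 0.11, adjusted p = 2.27e-06). Uqcr11 was higher by 0.84 (adjusted p = 7.22e-06), and Ndufc1, Ndufb8 and Uqcrb by 0.87, 0.86 and 0.73. By complex, with the TMM scaling, 14 members of complex I were higher and 3 lower, 4 and 1 of complex III, 8 and 0 of complex IV, and 5 and 0 of complex V. Of these 35 calls, 14 were kept in every alternative and 27 kept their sign in every alternative. No complex IV member was among the genes called with both scalings, and of complex V only Atp5g1 was. Summed T cell markers were 0.915 to 1.88 UMIs per 10000 in the macrophages, and summed macrophage markers 1.01 to 2.83 in CD8 T cells.

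Basal keratinocyte-like cells were compared with CD8 T cells in all 6 mice. Of 69 members, 12 were higher and 5 lower in the keratinocytes, where 47.4% of the 7627 genes tested were called (19.5% higher and 27.9% lower), and the median was 0.13 against −0.15 over all genes. With the deposited scaling 19 were higher and 5 lower, where 21.5% and 25.2% of genes were. In other alternatives more members were lower than higher, as more genes were in general: 3 were higher and 5 lower with every cell thinned to 1500 UMIs (14.8% and 24.7% of genes), 6 and 9 with doublets kept (18.3% and 26% of genes), and 9 and 10 with clusters at Leiden resolution 0.5 (19.2% and 28.2% of genes). By complex, 6 members of complex I were higher and 3 lower, 3 and 0 of complex III, 0 and 1 of complex IV, and 3 and 1 of complex V. Of the 17 calls, 7 were kept in every alternative: Cox5a, Ndufa13, Ndufb4, Ndufb7, Ndufv3, Uqcr11 and Uqcrc1. Leaving out 1 mouse at a time gave 13 to 32 calls.

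Uqcr11 was 4.68 and 4.99 in basal cells for NO_AG, 6.07 and 9.25 for AG, and 9.37 and 6.39 for AG_CPI, against a mean of 2.58 ± 0.301 (SD, n = 6) in CD8 T cells. It was higher by 1.21 (SE 0.14, adjusted p = 2.15e-05). Uqcrc1 was 4.71 and 5.04, 5.83 and 3.56, and 2.62 and 3.56 in the same order, against 1.53 ± 0.138 in CD8 T cells (1.25, SE 0.17, adjusted p = 5.54e-05). The 2 complex III genes thus differed by similar folds, although Uqcr11 had its highest basal values and Uqcrc1 its lowest in AG_CPI 1. Ndufb4, Ndufs6 and Uqcrb were higher by 0.65, 0.66 and 0.52 (adjusted p = 0.00134, 0.00292 and 0.00963). In the other direction, Ndufb7, a complex I subunit of the intermembrane face, was 0.963 and 1.07, 1.77 and 2.91, and 1.85 and 1.05 in basal cells against 3.59 ± 0.587 in CD8 T cells (−1.31, SE 0.17, adjusted p = 4.87e-05). Ndufa13, a complex I subunit also known as GRIM-19, was lower by a fitted −0.83 (adjusted p = 0.000209), Ndufv3 by −0.72, Cox5a by −0.55 and Atp5h by −0.41. T cell markers summed to 0.669 to 2.04 in basal cells and keratinocyte markers to 2.16 to 4.75 in CD8 T cells.

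Cycling T cells were compared with the other alpha-beta T cells of the same mouse, again in 6 mice. They were drawn from cluster 21, with 104 and 117 cells for NO_AG, 117 and 189 for AG and 177 and 116 for AG_CPI. Of these, 21 and 59, 99 and 169, and 165 and 112 passed the CD8 gate. The part of this make-up in the differences was not tested. Members were called in both directions. Of 69, 18 were higher and 8 lower, where 34.1% of the 7097 genes tested were called (15.9% higher and 18.3% lower), and the median was 0.06 against −0.05 over all genes. With the deposited scaling 27 were higher and 4 lower, where 18.4% of genes were higher and 13.8% lower. Complex I had 9 higher and 4 lower, complex III 0 and 1, complex IV 4 and 2, and complex V 5 and 1. Cycling cells were deeper, with median UMIs of 3528 to 5479.5 against 2095 to 2657, and with every cell thinned to 1500 UMIs 7 were higher and 9 lower, where 9.92% and 14.5% of genes were.

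Cox5b, the zinc-binding subunit of complex IV, in cycling cells was 6.97 and 7.57 for NO_AG, 8.37 and 9.83 for AG, and 8.60 and 7.33 for AG_CPI, against 4.68 and 4.89, 5.40 and 7.55, and 6.26 and 5.47 in the other T cells. It was higher in each of the 6 mice (0.44, SE 0.068, adjusted p = 7.31e-05). Ndufa4 was 6.82 and 5.92, 5.71 and 6.99, and 5.45 and 4.68, against 4.25 and 4.47, 4.28 and 5.53, and 3.86 and 3.56 (0.37, adjusted p = 0.000396), the same order in every mouse. Atp5o rose by 0.42, Atp5j, a stalk subunit, by 0.38 and Cox7a2 by 0.38. Uqcrh went the other way in every mouse, with 6.73 and 5.67, 7.50 and 9.34, and 7.73 and 7.91 in cycling cells against 8.85 and 9.55, 11 and 12.6, and 12.2 and 11.1 (−0.61, SE 0.075, adjusted p = 4.29e-06). Ndufa6, an accessory subunit that binds the acyl carrier, was 1.95 and 3.33, 2.95 and 2.85, and 2.60 and 2.46 against 3.89 and 3.88, 3.99 and 3.72, and 4.06 and 4.24 (−0.63, adjusted p = 5.15e-05). Cox7a2l, a factor that joins complexes III and IV into supercomplexes, was 1.67 and 1.70, 2.54 and 2.04, and 1.97 and 2.29 against 2.23 and 2.98, 3.15 and 2.88, and 2.90 and 3.26 (−0.57, adjusted p = 2.33e-05). Ndufa7 and Ndufv3, both of complex I, were lower by a fitted −0.33 and −0.23; Ndufv3 (adjusted p = 0.0168) lost its call with the deposited scaling and without AG_CPI 1. Called in all alternatives run were 11 members: Atp5g3, Atp5j, Atp5o, Cox5b, Cox7a2, Ndufa4 and Ndufb7 on the higher side and Cox7a2l, Ndufa6, Ndufa7 and Uqcrh on the lower.

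**Figure D3:**
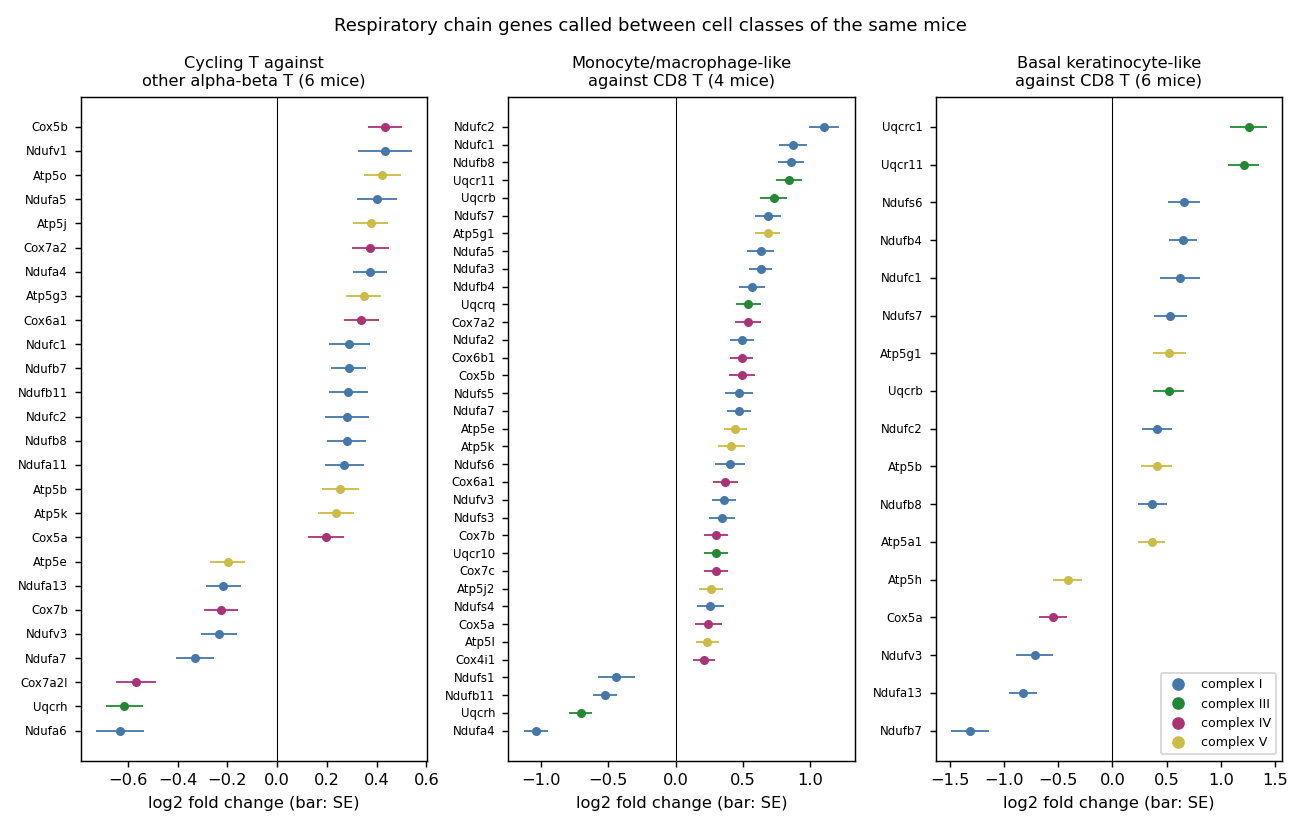
Log2 fold change with its SE (x axis) for each called member in cycling against other alpha-beta T cells (6 mice), macrophage-like against CD8 T cells (4 mice) and basal keratinocyte-like against CD8 T cells (6 mice), coloured by complex. Uqcrh lies at −0.61 in cycling T cells and −0.71 in macrophages, and Uqcr11 and Uqcrc1 lie furthest right in basal keratinocytes.

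Under the main settings the remaining comparisons within mice called few members. Their counts under other settings, some of them larger, are given in the section on processing. CD8 against conventional CD4 T cells gave 2 higher of 69, Cox5b (0.58, SE 0.15, adjusted p = 0.0278) and Cox5a (0.51, SE 0.14, adjusted p = 0.0483), where 2.06% of genes were called (1.96% higher) and the median was 0.35 against 0.31 over all genes. Of 13 alternatives, 6 kept the Cox5b call and 3 the Cox5a call, and with the deposited scaling neither was called (adjusted p = 0.392 and 0.501). The CD4 T cells numbered 10 to 61 a mouse. Suprabasal against basal keratinocytes gave 1 lower, Uqcrc1, where 9.81% of genes were called. Its suprabasal levels were 2.74 and 2.32 for NO_AG, 3.24 and 2.72 for AG and 1.09 and 1.85 for AG_CPI, each below the basal level of that mouse (−0.75, SE 0.14, adjusted p = 0.0049; −0.61 with adjusted p = 0.199 once cells were thinned). Upper hair follicle against basal cells gave Uqcrc1 lower (−0.76, SE 0.17, adjusted p = 0.00879) and Ndufv1, the FMN-binding subunit where NADH is oxidised, higher (0.66, SE 0.19, adjusted p = 0.0359), where 13.6% of genes were called. Ndufv1 kept its call in 5 of 12 alternatives (highest adjusted p = 0.225) and Uqcrc1 in 10 of 12 (0.166), and with thinned cells neither was called. Cycling against basal keratinocytes gave 1 of 70, Cox6b2, an isoform best known from testis, at 0.247 and 0.251 with antigen off (NO_AG), 0.255 and 0.284 with it on (AG) and 0.0844 under AG_CPI 2, against 0.0169 and 0.00546, 0.0393 and 0.102, and 0 in basal cells, where 5.77% of genes were called. Cox6b2 passed the filter on low levels only through the cycling cells, so its call is no support for a difference, and it was kept in 4 of 9 alternatives. Its basal value in AG_CPI 1 was 0.159, and that mouse had too few cycling keratinocytes to enter.

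CD8 T cells were compared between the groups to ask whether antigen in the skin, with or without CPI, went with a different level of these transcripts. The 74 genes summed to 240 and 257 UMIs per 10000 for NO_AG, 267 and 301 for AG and 276 and 255 for AG_CPI, so both AG mice lay above both controls and the AG_CPI mice overlapped the controls. The alpha-beta T cells that the CD8 gate draws on lay in different clusters by group. Cluster 14 held 4 and 6 cells for NO_AG, 190 and 386 for AG and 258 and 212 for AG_CPI, and cluster 15 held 1 and 14, 286 and 131, and 638 and 806; the part of this in the differences was not tested. In AG against NO_AG, limma called 0 of 69 members, where 2.39% of 6939 genes were called; 20 members had an unadjusted p under 0.05. Their median was 0.28 on the log2 scale against 0.03 over all genes, 68 of 69 were positive, and the AG mice lay above both NO_AG mice, on the TMM-scaled values, for 58 members and below for 0, against 24.9% and 18.5% of all genes. Scaling moved the median of all genes by about 0.1, to −0.07 on the deposited scale, and that of the members to 0.15; over 14 alternatives it stayed between 0.15 and 0.34. The CD8 gate also held cells with a UMI of Trdc, a gamma-delta receptor gene: 1 and 3 cells for NO_AG, 218 and 227 for AG, and 391 and 389 for AG_CPI; without them the median was 0.27 against 0.03. Complex IV and complex V had the highest medians (0.35 and 0.32), and complexes I and III had 0.24 each.

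Single members of the CD8 T cells show how far the mice of a group lay apart. Cox8a, the smallest subunit of complex IV, was 10.3 and 11.4 for NO_AG, 13.0 and 15.7 for AG and 13.2 and 11.9 for AG_CPI (AG against NO_AG 0.53, SE 0.15, adjusted p = 0.0945). Uqcrh was 8.90 and 8.79, 10.7 and 11.6, and 11.7 and 11 (0.46, SE 0.13, adjusted p = 0.108). Neither passed, although the mice with antigen lay above the controls for both genes. Ndufc2 was 1.34 and 1.51, 1.92 and 2.24, and 2.06 and 1.65 (0.63, SE 0.18, adjusted p = 0.0986). Atp5g3 was 7.37 and 8.35, 9.33 and 10.4, and 8.94 and 8.33. Ndufa6 was 3.99 and 3.89, 3.82 and 3.26, and 3.93 and 4.17, lowest in both AG mice on this scale, while its fitted AG against NO_AG value after TMM scaling was −0.03. In AG_CPI against NO_AG 1 member was called, where 3.98% of genes were (2.75% higher): Atp5k, at 1.61 and 1.90 with antigen off (NO_AG), 1.83 and 2.65 with it on (AG) and 3.48 and 2.74 under AG_CPI (0.89, SE 0.20, adjusted p = 0.032). The call was lost whichever of the 4 mice compared was left out (adjusted p 0.0524 to 0.353) and with the deposited scaling (0.79, adjusted p = 0.0597). The members' median in that comparison was 0.16 against 0.04 over all genes, 32 lay without overlap above and 4 below, against 28.2% and 21.1% of all genes. In AG_CPI against AG, limma called 0 members (0.0865% of genes, 0.0432% higher; 2 members at an unadjusted p under 0.05), the median was −0.13 against 0.00, and 27 members lay without overlap below and 3 above, against 18.6% and 20.5% of all genes. These comparisons share mice, so they are not independent of each other.

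Mouse by mouse, the second AG mouse stood above the first in 8 of 10 classes (median 0.19 on the log2 scale), and AG_CPI 1 stood above AG_CPI 2 in 7 of 8 (AG_CPI 2 against 1, −0.18). In NO_AG the difference was small, with mouse 2 above mouse 1 in 7 of 9 classes (0.04). The mice of a group thus differed in the same direction in most classes, T cells and keratinocytes alike; the part of this in the group differences was not tested.

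**Figure D4:**
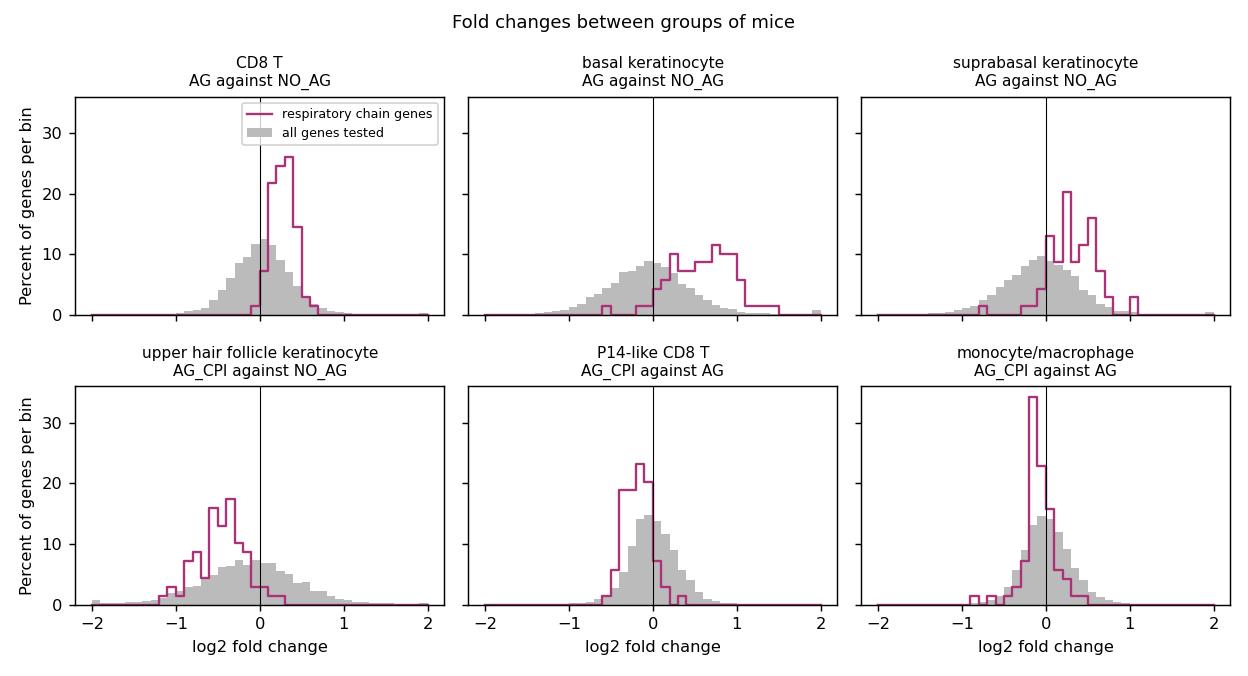
Distribution of log2 fold changes (x axis, bins of 0.1; y axis, percent of genes) for all genes tested (grey) and for the members (line) in 6 comparisons of groups within a class; values beyond 2 in either direction are drawn in the end bins. The members lie to the right of all genes in AG against NO_AG in CD8 T, basal and suprabasal cells (medians 0.28, 0.65 and 0.29), and to the left in upper hair follicle cells of AG_CPI against NO_AG (−0.46).

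CD8 T cells were split by their T cell receptor beta transcript into P14-like cells, with a UMI of Trbv13-3, the segment P14 cells carry, and host cells with another beta segment. Host cells can use Trbv13-3 too: NO_AG 2 held 12 P14-like cells. The summed level was 278 and 307 UMIs per 10000 in the P14-like cells of AG 1 and AG 2, against 248 and 281 in their host cells, so P14-like cells were higher by 29.5 and 25.6. In AG_CPI 1 and AG_CPI 2 it was 272 and 251 against 280 and 269, so the difference was −8.19 and −17.6. The AG and AG_CPI differences did not overlap, and over its 12 P14-like cells NO_AG 2 had a difference of −9.32. UMIs of the cytosolic ribosomal list also moved. The list takes genes by the prefixes Rpl and Rps, and so also holds kinase genes such as Rps6ka1. P14-like minus host, its UMIs differed by −511 and −291 per 10000 for AG, by −141 and −8.61 for AG_CPI and by 297 for NO_AG 2. Their part in the members' differences was not tested. Complex IV differed by 12.3 and 11.5 in AG and by −1.86 and −4.88 in AG_CPI, and complex V by 9.27 and 9.64 and by −4.90 and −5.44. Complex I differed by 4.65 and 4.22 and by −1.15 and −7.11, and complex III by 3.35 and 0.171 and by −0.287 and −0.147. Mitochondrially encoded transcripts were lower in P14-like cells of the 4 AG and AG_CPI mice, with differences of −99.2 and −52.7 in AG and −19.4 and −7.33 in AG_CPI, and higher by 115 in the 12 P14-like cells of NO_AG 2. Of 69 members, 51 and 54 were higher in the P14-like cells of the AG mice and 34 and 19 in those of the AG_CPI mice. The same share was not counted over all genes, so these counts cannot be read as a trait of the members.

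Tested over mice as a difference of differences, 2 of 69 members were called, both lower in AG_CPI, where 5.53% of 6869 genes were called, 2.69% lower. Cox5b in P14-like cells was 6.85 and 9.09 for AG and 6.46 and 5.37 for AG_CPI; in host cells it was 4.62 and 7.0, and 6.88 and 6.86. P14-like cells lay above host cells in both AG mice and below them in both AG_CPI mice (−0.68, SE 0.16, adjusted p = 0.0052). Cox7a2, another complex IV subunit, was 4.52 and 5.42 for AG and 3.91 and 3.31 for AG_CPI in P14-like cells, and 3.96 and 4.20, and 4.93 and 4.45, in host cells (−0.64, SE 0.17, adjusted p = 0.014). The median of the members was −0.19 against 0.00 over all genes, and 35 lay without overlap lower and 2 higher, against 22.3% and 23.5% of all genes. Leaving out cycling cells gave −0.81 for Cox5b and −0.73 for Cox7a2, both still called. Cox5b was kept in 10 and Cox7a2 in 9 of 13 alternatives. Both calls were lost without the filter on low levels (adjusted p = 0.331 for each) and without AG_CPI 2 (0.160 and 0.121), Cox7a2 was also lost without AG 2 (0.0927) or AG_CPI 1 (0.0527), and with thinned cells Cox5b was −0.56 with adjusted p = 0.128. Depth moved with the comparison: median UMIs were 3430.5 and 3369 in P14-like against 2434 and 2131.5 in host cells of AG, and 2343 and 2736 against 2376.5 and 3052.5 in AG_CPI. Cycling cells made up 15.2% and 26.9% of P14-like cells in AG and 16.1% and 8.08% in AG_CPI, and 4.66% and 19.0%, and 8.09% and 14.8%, of host cells.

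**Figure D5:**
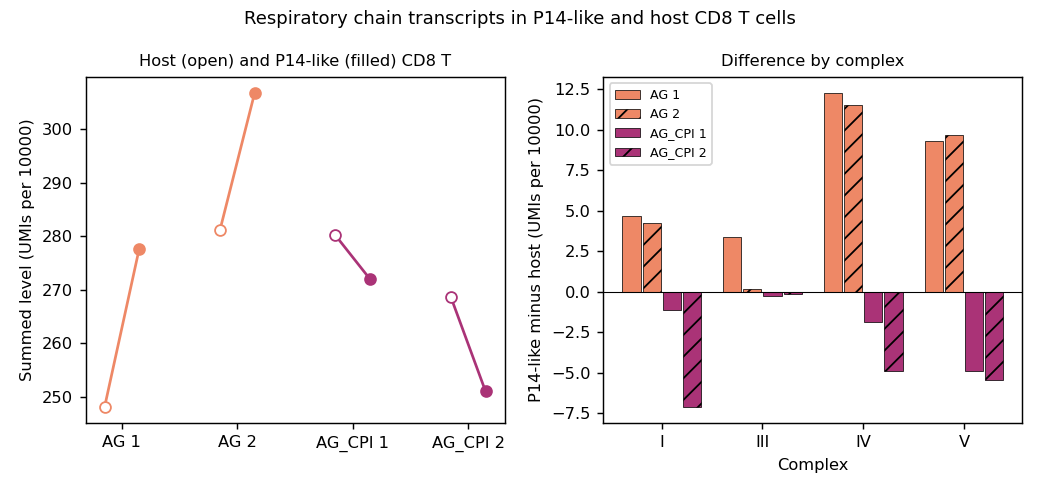
Left, summed level of the 74 genes (UMIs per 10000) in host (open) and P14-like (filled) CD8 T cells of each mouse; right, the P14-like minus host difference by complex, hatched for mouse 2 of a group. The sums differ by 29.5 and 25.6 in AG and by −8.19 and −17.6 in AG_CPI, with complexes IV and V above 0 in both AG mice and below 0 in both AG_CPI mice.

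Compared directly, the P14-like cells of AG_CPI and AG gave 0 of 69 members called by limma (1.19% of genes, 0.742% higher; 9 members at an unadjusted p under 0.05), a median of −0.17 against 0.00 and 39 members without overlap below and 1 above, against 21.0% and 21.6% of all genes. Ndufa4 was 4.27 and 6.32 in AG and 3.86 and 3.33 in AG_CPI (−0.56, SE 0.20, adjusted p = 0.275), and in host cells it was 4.97 and 4.91, and 5.01 and 4.75. The range in host cells was narrow across both groups. Atp5k again had a positive value (0.36), with 1.92 and 2.70 in AG and 3.48 and 2.62 in AG_CPI. Without AG 1, 5 members were called, all lower in AG_CPI, among 464 genes in all; without AG 2, 1 was called, higher, among 303 genes. P14-like against host cells over 5 mice gave 0 calls by limma (0.116% of genes, 0.0146% higher, and 0 members at an unadjusted p under 0.05). The median was −0.03 against −0.09 over all genes, and 0.01 with the deposited scaling. NO_AG 1, with 2 P14-like cells, did not enter, and NO_AG 2 entered with 12. That fit pools AG and AG_CPI mice, whose summed differences had opposite signs, so it does not show these cells to be alike.

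With all mice included, the other T cells and the macrophages gave no called member between groups. Fits without 1 mouse are given in the section on processing. In conventional CD4 T cells the sums were 225 and 245 for NO_AG, 256 and 295 for AG and 297 and 238 for AG_CPI, the last from only 11 and 10 cells; limma called 0 of 68 in AG against NO_AG (0.0534% of genes; 2 members at an unadjusted p under 0.05), where the median was 0.28 against 0.14 over all genes and 34 lay without overlap above and 0 below, against 26.5% of all genes above and 12.6% below. AG_CPI against AG (0% of genes called; 8 members at an unadjusted p under 0.05) and AG_CPI against NO_AG (0.16% of genes; 4 members) also gave 0 by limma, at medians of −0.44 and −0.06 against −0.50 and −0.38 over all genes. In regulatory T cells the sums were 239 and 239, 248 and 277, and 276 and 235, and limma called 0 members in any pair of groups (0%, 0% and 0.0314% of genes; 3, 0 and 3 members at an unadjusted p under 0.05). In DETC-like cells they were 235 and 246 with antigen off (NO_AG), 249 and 237 with it on (AG) and 216 under AG_CPI 2, and AG against NO_AG gave 0 by limma (0% of genes; 1 member at an unadjusted p under 0.05). AG_CPI 1 had too few DETC-like cells to enter.

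The NO_AG mice held too few macrophages to enter; in the other mice they summed to 247 and 266 in AG and 246 and 235 in AG_CPI. Limma called 0 of 70 (0.497% of genes; 4 members at an unadjusted p under 0.05), and the median was −0.09 against 0.01 over all genes. Ndufa4, given above by mouse, was −0.61 (SE 0.21, adjusted p = 0.415), with both AG_CPI mice below both AG mice. Cox4i2, an isoform of subunit 4 linked to low oxygen, was 0.212 and 0.102 in AG and 0.0815 and 0.0132 in AG_CPI; it passed the filter on low levels only through the AG mice, so no fold is given. Atp5k was 1.84 and 3.0 in AG and 3.22 and 3.43 in AG_CPI (0.50, SE 0.22, adjusted p = 0.642).

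Basal keratinocyte-like cells showed the widest spread. The sums were 240 and 241 UMIs per 10000 for NO_AG, 293 and 433 for AG and 371 and 286 for AG_CPI, so all 4 mice with antigen lay above both controls, and the 2 AG mice lay widely apart. Limma called 0 of 69 in AG against NO_AG (0.153% of genes; 20 members at an unadjusted p under 0.05). The median was 0.65 against −0.05 over all genes and 66 members were positive, with 58 without overlap above and 1 below, against 24.0% and 27.6% of all genes; over the alternatives the median stayed between 0.36 and 0.96. The medians by complex were 0.57 (I), 0.51 (III), 0.83 (IV) and 0.65 (V). In AG_CPI against NO_AG limma called 0 (0.153% of genes, 0.0697% higher; 15 members at an unadjusted p under 0.05), with a median of 0.22 against −0.21, and in AG_CPI against AG 0 (0% of genes; 7 members), with −0.33 against −0.19. The difference between basal cells and CD8 T cells in the AG against NO_AG contrast was tested as an interaction; limma called 0 members (0.341% of genes; 8 members at an unadjusted p under 0.05), with a median of 0.29 against −0.09.

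Ndufa4 in basal cells was 2.73 and 2.46 for NO_AG, 3.91 and 12.6 for AG and 8.86 and 6.36 for AG_CPI (AG against NO_AG 1.47, SE 0.50, adjusted p = 0.766). Uqcrq, a small subunit of complex III, was 2.48 and 2.85, 4.29 and 9.80, and 5.39 and 5.48 (1.32, SE 0.37, adjusted p = 0.567). Both had their highest value in AG 2, and neither passed. Atp5g1 was 3.88 and 4.30, 6.72 and 9.11, and 5.77 and 5.62 (0.99, SE 0.26, adjusted p = 0.483). Atp5k was 1.58 and 1.55, 2.32 and 5.47, and 7.14 and 3.93 (1.20, SE 0.46, adjusted p = 0.929). Not all members were higher with antigen: Cox7a2l was 4.17 and 4.42 with antigen off (NO_AG), 3.17 and 2.45 with it on (AG) and 2.39 and 4.04 under AG_CPI (−0.54, SE 0.28), and Ndufa6 was 3.73 and 3.54, 2.84 and 3.34, and 3.71 and 3.06 (−0.17). The class was made of different cells in the groups. Of the basal cells, cluster 0 held 412 and 279 for NO_AG, 47 and 2 for AG and 1 and 1 for AG_CPI, and cluster 13 held 20 and 6, 111 and 59, and 51 and 14. Krt17, a keratin of appendages and wounded skin, was 0.882 and 1.63, 16.4 and 23.7, and 15 and 0.841. Krt6a, another wound keratin, was 0.0524 and 0.109, 1.60 and 12.1, and 5.90 and 2.38. Sprr1a was 0.161 and 0.132, 0.0989 and 0.581, and 0.0751 and 0.484, highest in AG 2 but lowest in AG_CPI 1. Dst was 11.6 and 10.1, 4.85 and 2.55, and 2.70 and 4.36, lower in every mouse with antigen. The keratin Krt5 was 150 and 179, 191 and 72.8, and 105 and 121. Krt14 was 162 and 184, 278 and 139, and 164 and 155. Krt5 and Krt14 were both highest in AG 1 and lowest in AG 2. Median UMIs were 5172 and 6448, 7091.5 and 2929, and 2199 and 2361, and AG_CPI 2 held 15 cells with 9.74% mitochondrial UMIs against 3.43% to 5.72% elsewhere. The part of cluster, depth and these markers in the group difference cannot be told apart from antigen in this design.

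Suprabasal cells summed to 257 and 264 with antigen off (NO_AG), 298 and 343 with it on (AG) and 269 and 245 under AG_CPI. Limma called 0 in AG against NO_AG (0.0147% of genes; 15 members at an unadjusted p under 0.05), with a median of 0.29 against −0.05 and 54 without overlap above and 2 below, against 20.6% and 22.9% of all genes. The class was made of different clusters in the groups: cluster 4 held 235 and 188 cells for NO_AG, 53 and 1 for AG and 1 and 0 for AG_CPI, and cluster 5, which all mice shared, held 143 and 124, 169 and 30, and 21 and 26. Within cluster 5 the median was 0.19. Ndufa4 was 4.31 and 4.11, 5.22 and 13.1, and 6.65 and 4.62, again highest in AG 2, while Cox7a2l was 3.51 and 3.24, 2.57 and 1.36, and 2.79 and 2.16 (−0.75, SE 0.33, adjusted p = 0.999). Cox7a2l thus lay below both controls in every mouse with antigen. AG_CPI against AG gave 0 by limma (0% of genes; 15 members at an unadjusted p under 0.05) with a median of −0.41 against −0.09, and AG_CPI against NO_AG 0 (0.044% of genes, 0.0293% higher; 7 members) with −0.11 against −0.13. Bulge cells summed to 247 and 261, 309 and 357, and 303 and 240. They too came from different clusters: cluster 2 held 79 and 72 bulge cells for NO_AG, 18 and 7 for AG and 2 and 5 for AG_CPI, and cluster 11 held 6 and 7, 118 and 60, and 22 and 23.

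Upper hair follicle cells had their highest sums in the NO_AG mice. They came from 1 cluster in every mouse, and their sums were 353 and 356 for NO_AG, 349 and 347 for AG and 272 and 295 for AG_CPI. AG against NO_AG had a median of −0.01 against 0.01 and 0 calls by limma (0.0991% of genes; 0 members at an unadjusted p under 0.05). Both AG_CPI mice lay below the other 4. Limma called 0 in AG_CPI against AG (0% of genes; 26 members at an unadjusted p under 0.05), with a median of −0.44 against −0.14 and 54 members without overlap below and 1 above, against 24.9% and 12.9% of all genes; with the deposited scaling the median was −0.24 against 0.02. In AG_CPI against NO_AG it called 0 (0.609% of genes; 21 members), with −0.46 against −0.12 and 49 below and 1 above, against 26.2% and 16.0% of all genes. The medians by complex in the latter were −0.34 (I), −0.44 (III), −0.47 (IV) and −0.56 (V).

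Cox8a in these cells was 17.6 and 19.7 with antigen off (NO_AG), 17.3 and 18.2 with it on (AG) and 10.3 and 11.1 under AG_CPI (AG_CPI against NO_AG −0.96, SE 0.23, adjusted p = 0.111). Ndufs7, which carries the last iron-sulfur cluster before ubiquinone, was 2.97 and 3.04, 2.77 and 2.56, and 1.54 and 1.69 (−1.02, SE 0.24, adjusted p = 0.107). Ndufa12 was 1.53 and 2.33, 2.41 and 1.95, and 0.972 and 0.897 (−1.10). In all 3 the AG_CPI mice lay apart from the rest. Cox4i1 was 18.7 and 18.3, 17.3 and 17.2, and 12.9 and 13.3. Atp5g1 was 6.73 and 6.94, 6.06 and 5.29, and 4.08 and 4.18 (−0.89). Atp5k differed in direction, with 3.18 and 3.13, 2.88 and 3.51, and 4.62 and 3.85 (0.24). The AG_CPI values rest on 22 and 27 cells against 87 to 203 in the other mice, with median UMIs of 3472 and 7745 against 4783 to 7168, and on 6.42% and 3.29% mitochondrial UMIs. Leaving out AG_CPI 2 gave 31 members called lower against NO_AG and 29 against AG, while 1886 and 1587 genes were called in all. The lone AG_CPI mouse is then assumed to vary like the other groups.

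The named states did not hold all keratinocytes. Clusters with too few listed markers, or with over 90% of their cells from 1 library (a rule set after the clusters were seen), took 41.9% and 44.2% of the keratinocyte-like cells of NO_AG 1 and 2, 25.1% and 80.6% of those of AG 1 and 2, and 30.6% and 55.1% of those of AG_CPI 1 and 2. The second reason alone took 23.8% in AG 2, 16.6% in AG_CPI 2, 6.41% in NO_AG 2 and at most 1.08% elsewhere. The states above therefore describe the smaller share of the keratinocytes of AG 2 and of AG_CPI 2.

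Other mitochondrial genes, from lists fixed with earlier results known, give the setting. The cytosolic ribosomal list, taken by name prefix, also holds genes of other kinds, such as the kinase genes Rps6ka1 and Rps6ka4. In AG against NO_AG in CD8 T cells, limma called 0 of 4 complex II genes (median 0.35), 0 of 13 mitochondrially encoded genes (0.04), 0 of 76 mitochondrial ribosomal genes (0.23) and 0 of 88 genes of the cytosolic ribosomal list (0.07), against the 0.28 of the members. Of 37 assembly factors 1 was called, a share near the 2.39% of all genes: Cox17, the copper chaperone of complex IV, which rose by 1.35 (SE 0.26, adjusted p = 0.018). In AG_CPI against NO_AG, where 3.98% of all genes were called, it rose by 1.68 (adjusted p = 0.0031), with Surf1, another complex IV assembly factor, up by 0.97 (adjusted p = 0.030). In basal cells of AG against NO_AG 0 of 13 mitochondrially encoded genes (0.20), 0 of 13 TCA cycle genes (0.22), 0 of 77 mitochondrial ribosomal genes (0.40) and 0 of 87 genes of the cytosolic ribosomal list (−0.13) were called by limma. The nuclear and mitochondrial transcripts of the chain had different medians in both classes.

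In cycling T cells, where 15.9% of all genes were higher and 18.3% lower, other lists were also called. Of 13 mitochondrially encoded genes 12 fell and 0 rose (median −0.38), led by mt-Nd4 (−0.50, adjusted p = 0.00022), while 18 members rose and 8 fell. Genes of the cytosolic ribosomal list fell in 72 of 86 cases and rose in 2 (−0.51), led by Rps27 (−0.98). Cytochrome c (Cycs, 0.50, adjusted p = 5.64e-05) and the acyl carrier subunit Ndufab1 (0.37) rose, 3 of 13 TCA cycle genes rose and 0 fell, led by fumarase (Fh1, 0.75), and 12 mitochondrial ribosomal genes rose and 6 fell of 76. Of the regulators, Nrf1 rose by 0.42 and Myc was lower by a fitted −0.77. In basal keratinocytes against CD8 T cells, where 19.5% of all genes were higher and 27.9% lower, 9 of 13 mitochondrially encoded genes were higher and 0 lower (0.39), and Cox17 was lower by a fitted −1.74. In macrophages against CD8 T cells, where 32.1% of all genes were higher and 29.4% lower, 2 of 13 were higher and 0 lower (−0.05), 3 of 4 complex II genes were higher and 0 lower, and Cycs was higher by 0.98. In the P14-like minus host difference, 0 of 13 mitochondrially encoded genes were called by limma, with all 13 positive in AG_CPI against AG (0.26), the opposite sign to the members' −0.19.

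The scarce isoforms of complex IV were almost absent from these classes: Cox7a1, Cox6a2 and Cox8b stayed below 0.1 UMIs per 10000 in each. Cox6a2, an isoform of subunit 6a best known from heart and skeletal muscle, had 565 UMIs in all retained cells, and 529 of them (93.6%) lay in 1 cluster of 51 cells outside the compared classes. In that cluster 48 cells (94.1%, exact 95% binomial interval 83.8% to 98.8%, counting error only) had a UMI. Its level was 27.5 and 29.9 UMIs per 10000 in the AG mice and 25.7 and 24.3 in the AG_CPI mice, from 8, 18, 12 and 13 cells, and no cell of a NO_AG mouse was in it. The ubiquitous isoform Cox6a1 was 3.42 there. In alpha-beta T cells 3 of 6007 cells had a Cox6a2 UMI (0.0499%), in macrophages 3 of 1149 (0.261%) and in keratinocytes 10 of 6892 (0.145%), at median depths of 2578 UMIs in the T cells and 3775 in the cluster. The cluster's leading genes were Cox6a2, Ccr9, Iglc3, Fcrla, Rnase6, Pld4, Igkc, Mzb1, Klk1 and Irf8, and it was left unnamed because none of its top genes was in a marker list; its Bst2, Ccr9 and Tcf4 were 48.2, 10.5 and 7.94 against 2.08, 0.00386 and 0.398 in all other cells. Cox4i2 had 263 UMIs, of which 104 (39.5%) lay in an unnamed cluster of 243 cells led by Crabp1, Vcan and Rspo3, and 54 in macrophages. Cox6b2 had 1127 UMIs, Cox7a1 247 and Cox8b 8.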

How the data were processed

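Single-cell 5' RNA-seq libraries of skin from 6 mice were used. Per the submitters' processing notes, the reads were processed with Cell Ranger 3.1 against mm10. The deposited values are log10 of 1 plus UMIs per 10000, as the values themselves show: 100% turned back into whole UMIs (within 0.1), and the deposited genes held 95.4% to 96.7% of each cell library's UMIs. Of 21178 cells, 51 failed filters (200 genes, 20% mitochondrial) and 663 scored as doublets (0.8% per 1000 cells) were left out. Cells were clustered with scanpy 1.11.5 in Python 3.11.15 (2000 variable genes without members, mitochondrial, ribosomal and receptor genes; 30 components, 15 neighbours, Leiden resolution 1), which gave 47 clusters, and keratinocyte-like cells were clustered again into 25. A cluster was named where at least 3 listed markers were among its top 50 genes. T cells were gated by UMIs of Cd8a or Cd8b1, Cd4, Foxp3 and receptor segments.

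Mean levels per mouse and class (at least 10 cells) were scaled by TMM and fitted as log2(level + 0.1) with limma 3.58.1 in R 4.3.3, for genes with a mean of 0.1 per 10000 and 20 UMIs. Cells are not replicates. The p-values measure the spread between mice, and for classes compared within mice the spread of that difference over the mice. Non-overlap of mice was counted on the scaled values. The code was tested on simulated data. Alternatives were the deposited scaling, no filter, a pseudocount of 0.5, thinning to 1500 UMIs, doublets kept, Leiden resolution 0.5, Trdc cells left out, a replicate block and each mouse left out. Added after the data were seen were the upper hair follicle, regulatory T and DETC-like comparisons, the P14-like minus host difference, a crossed block, cycling T cells left out and 1 shared suprabasal cluster. Members and lists were chosen with earlier results of these data known. Members named are the called ones with the smallest p (up to 5 a direction), the extremes of each complex, the 5 most variable and a fixed list of 29; Ndufa6, Ndufa13, Ndufc2 and others outside it that are given for groups without a call were chosen after their values were seen.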

Additional observations from a re-analysis of the deposited data

Results flagged for a closer look

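The difference between P14-like and host CD8 T cells of the same mouse differed between AG and AG_CPI for 2 genes by the test of the difference itself: Cox5b by −0.68 on the log2 scale and Cox7a2 by −0.64, both in limma over 4 mice, where 2.69% of all genes were called lower, so 2 of 69 members is near that share. Both calls were lost when AG_CPI 2 was left out and without the filter on low levels (adjusted p = 0.331 for each), Cox5b also with thinned cells (0.128) and Cox7a2 without AG 2 or AG_CPI 1 (0.0927 and 0.0527). The summed level of all 74 genes moved one way in both AG mice (29.5 and 25.6 UMIs per 10000 higher in P14-like cells) and the other way in both AG_CPI mice (−8.19 and −17.6). That sum was not tested. Cox6a2 reached 27.1 UMIs per 10000 over 51 cells that belong to no compared class, against 0.00151 in alpha-beta T cells, 0.00325 in macrophages and 0.00553 in keratinocytes, each over the cells of all mice together.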

How the results depend on the processing

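Over all alternatives, 303 counts of called members stayed within 1.5 times the reported count, 62 moved and 6 had another majority direction; named members kept direction and call in 409 cases and lost the call in 52. With the deposited scaling, CD8 T AG_CPI against NO_AG and CD8 against CD4 gave 0, macrophages against CD8 T cells 39 (11 higher, 28 lower, with 4746 genes called in all) and suprabasal against basal 2 (695 genes). Without the filter on low genes, CD8 T AG_CPI against NO_AG, CD8 against CD4, cycling against basal keratinocytes and the P14-like minus host difference gave 0, and upper hair follicle against basal 1. A pseudocount of 0.5 gave 4 for CD8 against CD4 (253 genes). Thinning to 1500 UMIs gave 16 for cycling T cells (7 higher, 9 lower, 1733 genes), 14 for CD8 against CD4 (580 genes), 8 for basal against CD8 T cells (3 higher, 5 lower, 3002 genes), 1 for the P14-like minus host difference (201 genes), and 0 for suprabasal, cycling and upper hair follicle against basal cells. With doublets kept, CD8 against CD4 gave 0, basal against CD8 T cells 15 (6 higher, 9 lower, 3383 genes), and suprabasal, cycling and upper hair follicle against basal cells 2, 3 and 5 (715, 508 and 1124 genes). Leiden resolution 0.5 gave 19 (9 higher, 10 lower, 3618 genes) for basal against CD8 T cells, and 12 (8 higher, 4 lower), 4 and 7 for suprabasal, cycling and upper hair follicle against basal (1439, 513 and 1072 genes). Leaving out Trdc cells gave 1 for CD8 against CD4 (139 genes). The cause was not tested in any of these.

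Leaving out 1 mouse at a time gave these ranges of called members, with an arm of 1 mouse assumed to vary like the other groups. CD8 T cells gave 0 to 2 in AG against NO_AG (2 without AG 1, with 237 genes called) and 0 to 0 in AG_CPI against NO_AG. P14-like cells gave 0 to 5 (5 without AG 1, with 464 genes called), the P14-like minus host difference 0 to 3 (3 without AG 1 or AG 2, with 388 and 367 genes), and DETC-like cells 0 to 11 (11 without AG 1, with 2054 genes). CD4 T cells gave 0 to 7 in AG_CPI against AG (7 without AG_CPI 2, with 455 genes) and 0 to 4 in AG_CPI against NO_AG (4 without AG_CPI 2, with 517 genes). Macrophages gave 0 to 2 (2 without AG 2, with 442 genes). Basal cells gave 0 to 18 in AG_CPI against AG and 0 to 5 in AG_CPI against NO_AG, both highest without AG_CPI 1, with 2015 and 2040 genes. Suprabasal cells gave 0 to 1 in AG_CPI against NO_AG (1 without AG_CPI 2, with 229 genes), and upper hair follicle cells 0 to 29 in AG_CPI against AG and 0 to 31 in AG_CPI against NO_AG, highest without AG_CPI 2, with 1587 and 1886 genes. Within mice the ranges were 20 to 28 for cycling T cells (2057 to 2403 genes), 0 to 3 for CD8 against CD4 (72 to 212 genes), 28 to 36 for macrophages (3778 to 4249 genes) and 13 to 32 for basal against CD8 T cells (32 without AG_CPI 2, with 3830 genes), and 1 to 2, 0 to 3 and 0 to 6 for suprabasal, cycling and upper hair follicle against basal cells, with 626, 397 and 1019 genes where most members were called.

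The replicate numbers carried no pairing in the labels, and same-numbered mice correlated at −0.244 to 0.0369; the replicate block left every count at its value (0 for AG against NO_AG in CD8 T cells, 1 for AG_CPI against NO_AG). Crossing the numbers gave 2 for AG_CPI against NO_AG in basal cells (109 genes) and changed no other count. The stress against basal comparison was not run, as its cluster came almost entirely from 1 mouse. Group comparisons rest on 2 mice a group and, in conventional CD4 T cells and some keratinocyte classes, on 10 to 61 cells a mouse; the smallest difference this can show was not tested.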
